A study of Mus musculus with 18 samples.

Results

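Chimeric reads were examined on 7 genes that set whether a thymocyte survives: Bcl2, Bcl2l1, Bcl2l11, Mcl1, Bax and Bbc3 of the Bcl2 family, and Xiap. A chimeric read joins a miRNA to a stretch of the transcript it was bound to, so each read names a miRNA and a position. Reads were taken where they lay on the gene's strand within its RefSeq span on GRCm38.p6. The 7 genes held 2720 such reads of 1190995 over 12 libraries, with 6 more on the opposite strand. Reads were assigned to a gene by strand and span alone.

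The libraries came from thymocytes of 6-week-old mice, crosslinked with 254 nm UV light and taken through miR-eCLIP, in which Argonaute 2 (Ago2) is precipitated with its miRNAs and targets. Wild-type mice were C57BL/6. The knockout was B6.Mirc14tm1.1Ankr, which lacks the miR181a/b-1 locus; miR-181a-5p and miR-181b-5p are also made from another locus, and miR-181c and miR-181d from a further one. Each genotype gave 3 libraries of the whole Ago2 immunoprecipitate (Ago2 IP) and 3 libraries further enriched for miR-181 chimeras. Input libraries, 6 in number, were left out. The labels do not say whether the 3 libraries of a group came from separate mice, so p-values measure the spread between these libraries, which may be technical. Cells were total thymocytes, so fewer cells of a type and less RNA per cell cannot be told apart.

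Depth differed between the groups. The wild-type enriched libraries held 194628 to 293149 chimeric reads, the Ago2 IP libraries 43983 to 117849 and the knockout enriched libraries 6832 to 19264. A gene with 3 reads over a whole group corresponds to 13.0 rpm (chimeric reads scaled to a library total of 1000000) in wild-type Ago2 IP but 78.4 rpm in knockout enriched libraries, so small values are least certain there. miR-181 named 30.1% to 32.3% of reads in wild-type Ago2 IP and 1.32% to 1.44% in knockout Ago2 IP. In the enriched libraries the share was 98.8% to 99.2% in wild type and 70.5% to 72.6% in the knockout. All 12 thymocyte markers carried reads, summing to 15584 to 19152 rpm per library. The 15 listed markers of B cells, myeloid cells, thymic epithelium and erythroid cells together summed to 0 to 104 rpm per library, and Foxn1, Krt5, Krt8 and Cd68 had no read. A chi-square test did not separate knockout enriched libraries 2 and 3 (p = 0.161) and separated the other pairs of a group, but it rested on only 136 genes. Its value per degree of freedom, 1.12, was no lower than the 1.07 of knockout Ago2 IP libraries 2 and 3 over 1407 genes. The 2 libraries were kept as separate samples and also counted as 1.

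A miRNA guides Argonaute to a transcript mainly through its seed, bases 2 to 8, and the bound transcript is repressed or degraded. In the mitochondrial path to cell death, Bcl2, Bcl-xL (from Bcl2l1) and Mcl1 hold back Bax, while the BH3-only proteins Bim (from Bcl2l11) and Puma (from Bbc3) oppose them. Xiap acts further down, binding and inhibiting caspases. Thymocytes that fail selection die by this path, with Bim as a main trigger, and double-positive thymocytes are rich in miR-181a.

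The mature sequences below, from RefSeq (GRCm38.p6), are those whose reads make up the sites described further on. Each is written 5′ to 3′ with the seed in capitals.
miR-181a-5p: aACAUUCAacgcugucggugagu
miR-181b-5p: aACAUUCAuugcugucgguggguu
miR-181c-5p: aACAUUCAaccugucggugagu
miR-17-5p: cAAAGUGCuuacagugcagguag
miR-20a-5p: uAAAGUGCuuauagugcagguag
miR-93-5p: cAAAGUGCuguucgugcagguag
miR-20b-5p: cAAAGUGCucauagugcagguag
miR-106a-5p: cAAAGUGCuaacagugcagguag
miR-142a-3p: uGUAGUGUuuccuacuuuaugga
miR-29a-3p: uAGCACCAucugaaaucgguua
The first 3 share the seed ACAUUCA and differ in their 3′ bases, and the next 5 share AAAGUGC and are called the miR-17 family here. Of 76 miRNA names on the members, 61 had a mature sequence in the table.

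The members differed in how many reads they drew, in where those reads lay and in which miRNA they named. Bcl2 held 727 reads, Xiap 706, Mcl1 693, Bcl2l1 446, Bcl2l11 136, Bbc3 8 and Bax 4. Read totals are not levels per length, and the groups supplied unequal parts, so this order says nothing of binding strength. Wild-type enriched libraries gave 397 of the Bcl2 and 488 of the Mcl1 reads. For Xiap they gave 116, against 270 from wild-type and 295 from knockout Ago2 IP. Positions at most 20 nt apart on a strand were joined into clusters, and clusters of at least 10 reads are called sites and numbered by size within a gene. The members held 800 clusters, 27 of them sites. Xiap and Mcl1 each put most of their reads into 1 site, 73.4% and 70.9%, whereas the largest Bcl2 site took 6.05% and that of Bcl2l1 18.2%. With reads of the same position, strand and miRNA counted once per library, the share was 67.1% for Xiap but 42.9% for Mcl1 (148 of 345 distinct reads), no longer a majority. The largest cluster took a median of 18.6% over the 449 coding genes that held 400 reads or more. Of those genes, 9.80% had a higher share than Xiap, 11.1% a higher share than Mcl1 and 91.8% a higher share than Bcl2; counted once, these were 5.57%, 17.4% and 92.0%, and the median was 15.6%.

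**Figure D1:**
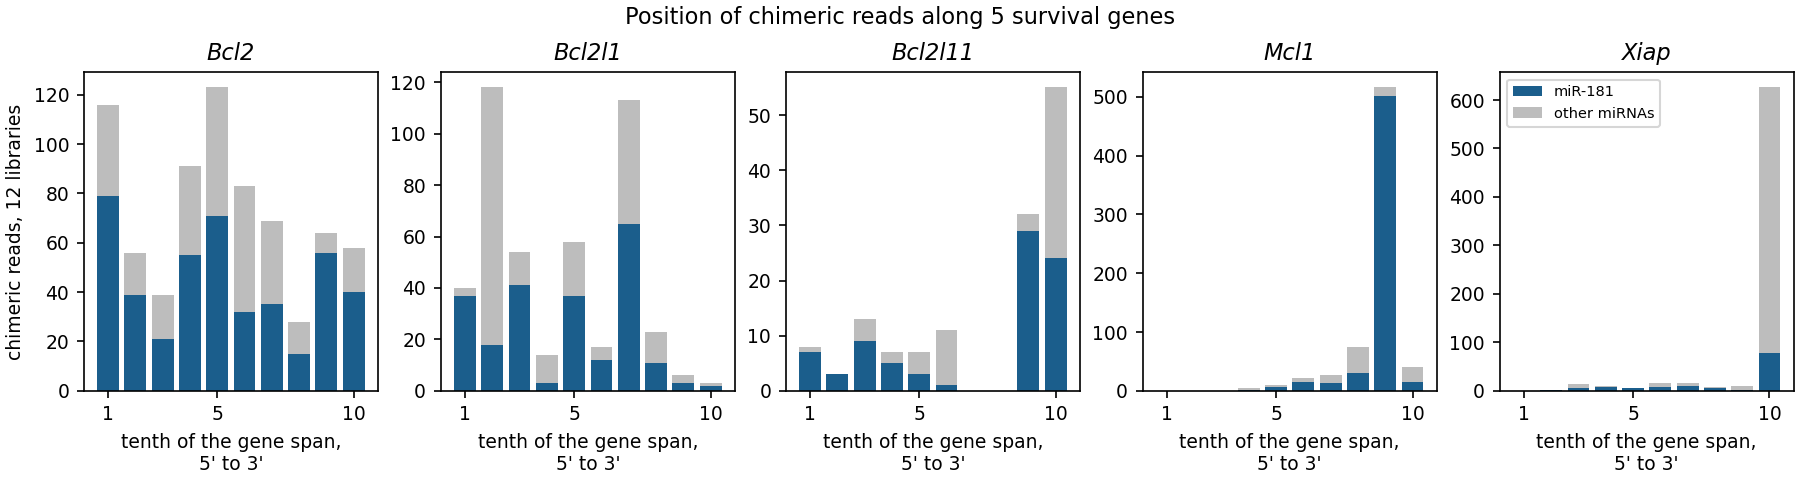
Chimeric reads of all 12 libraries (y axis, reads) in 10 equal bins of the gene span from 5′ to 3′ (x axis) for 5 genes, split into miR-181 reads and reads of other miRNAs. Mcl1 put 502 of its 584 miR-181 reads into bin 9 and Xiap put 548 of its 584 other reads into the last bin, while Bcl2 reads lay in every bin.

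Bcl2, the first known inhibitor of apoptosis in lymphocytes, spans chr1:106538176-106714290 on the minus strand. Its 727 reads fell into 408 clusters, of which 321 were single reads and 8 were sites. The last of 10 equal bins of the span held 9.03% of its miR-181 reads, and every bin held at least 15 of them. An exon or UTR class was not assigned, because no exon annotation of the build was used here. A lncRNA, Gm37053, lies within the span and covers 6.74% of the Bcl2 reads; its strand was not known here, so those reads cannot be assigned to either transcript.

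Of the 8 Bcl2 sites, 7 had a majority of miR-181 reads, and these 7 reached 10 reads only through the wild-type enriched libraries, where nearly all reads name miR-181. Over the 10812 sites of all transcripts 74.7% had such a majority, as did 6702 of the 7223 sites with under 10 reads outside those libraries, so the class of these Bcl2 sites is no finding about Bcl2. Site 1 (chr1:106710502-106710598, 3692 nt into the span) held 44 reads, all miR-181 and 43 of them miR-181a-5p. Site 2 (chr1:106573243-106573342) held 36 reads, all miR-181a-5p. Reads at site 1 numbered 14, 13 and 15 in the wild-type enriched libraries and 1, 0 and 1 in wild-type Ago2 IP, with none in any knockout library. Site 4 (chr1:106655301-106655360) held 27 reads, all miR-181, of which 19 were miR-181a-5p. The other site was site 3 (chr1:106626867-106626959), where miR-142a-3p, an abundant miRNA of blood cells, made 22 of 29 reads. At site 3 the miR-142a-3p reads of Ago2 IP numbered 9 for wild type and 11 for the knockout. None of the 8 sites had enough reads to enter the test of clusters.

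Over the whole gene, Bcl2 reads in Ago2 IP stood at 925, 623 and 773 rpm in wild type and 921, 710 and 653 rpm in the knockout. The groups overlapped, and the fitted log2 difference was -0.08 (SE 0.19; edgeR quasi-likelihood test, adjusted p = 0.860, n = 3 each). Their make-up differed all the same. miR-181 named 21.9% ± 8.9 (SD, n = 3) of wild-type Bcl2 reads and 1.67% ± 1.5 of knockout Bcl2 reads, with no overlap. Reads of other miRNAs were 602 ± 121 rpm in wild type and 750 ± 152 rpm in the knockout (SD, n = 3). Of Bcl2 reads, miR-142a-3p named 61 of 186 in wild-type and 63 of 138 in knockout libraries.

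The enriched libraries separated the genotypes at Bcl2. Values were 512, 521 and 591 rpm in wild type and 82.1, 208 and 146 rpm in the knockout, where the gene had only 1, 4 and 1 reads. The groups did not overlap, and Bcl2 reads were 4.18-fold lower in the knockout (log2 -2.06, SE 0.44; edgeR, adjusted p = 0.00423). With 6 knockout reads in all, Bcl2 passed the filter only through the wild-type libraries, where it was higher, so the call is given as description. Counting error alone put the ratio of the pooled rpm at 0.293 with an exact interval of 0.107 to 0.643. The call held in all 12 alternatives that gave a value, with log2 differences from -3.04 to -1.78. Across the 2047 genes tested in these libraries, 3.42% were called, 1.37% higher and 2.05% lower, and 27.7% had groups that did not overlap. Of the 5 members tested, Bcl2 was called lower and Xiap higher, with a median log2 difference of 0.03 beside -0.13 over all genes. The effect of enrichment on Bcl2 differed between genotypes by -2.12 (SE 0.52; edgeR interaction, adjusted p = 0.00859), an added test in which 1.97% of 1976 genes were called, 1.82% higher and 0.152% lower, with a median of -0.11. With library sizes alone it was -1.73 (edgeR, adjusted p = 0.0420) beside a median of 0.30.

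Bcl2l1, whose main product Bcl-xL keeps double-positive thymocytes alive, spans chr2:152758732-152833803 on the minus strand. Its 446 reads fell into 167 clusters, 122 of them single reads, and the 7 sites held 48.9% of the reads. Sites 1 and 2 were mainly miR-142a-3p sites: 53 of 81 reads at site 1 (chr2:152822032-152822290) and 29 of 48 at site 2 (chr2:152781943-152782063). Site 1 also held 8 miR-18a-5p reads. At sites 3 to 7 miR-181 made 11 of 14 reads at site 4 and all reads at the other 4, but each of the 5 also passed 10 reads only through the wild-type enriched libraries.

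The miR-142a-3p site of Bcl2l1 was seen in both genotypes. Site 1 stood at 136, 101.3 and 205 rpm in wild-type Ago2 IP and at 214, 192 and 230 rpm in the knockout, so the groups overlapped, and the log2 difference of 0.45 (SE 0.38) did not pass the test (edgeR over 251 clusters, adjusted p = 0.377). In wild-type enriched libraries site 1 fell to 14.01 ± 8.6 rpm from 147 ± 53 rpm in Ago2 IP (SD, n = 3). That was a fall of 15.2-fold in the fit, which applies TMM scaling (log2 -3.93, SE 0.47; edgeR, adjusted p = 1.9e-08). The fall in pooled rpm was smaller, at 9.34-fold with an exact counting interval of 4.59 to 20.5. The call held in all 13 alternatives that gave a value (log2 -5.60 to -2.26). The site passed the filter only through the Ago2 IP libraries, where it was higher, so the call is given as description. Of the 1200 clusters tested in that comparison, 56.3% were called, 30.0% higher and 26.3% lower, and 77.0% had groups that did not overlap.

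Site 3 of Bcl2l1 (chr2:152781434-152781544) stood out in which miR-181 it named. miR-181b-5p made 24 of its 39 reads. In wild-type enriched libraries miR-181b-5p was 20 of 30 reads naming miR-181a-5p or miR-181b-5p, or 66.7% (95% Wilson interval 48.8% to 80.8%; 33.3% to 80.0% over the 3 libraries). In the whole libraries that share was 18.4%. With repeats of the same position and miRNA counted once per library it was 15 of 24. Among the 18 member sites with at least 10 such reads no other site had a majority of miR-181b-5p. The site was picked out after their values were seen, so this is a description. The intervals cover counting error only.

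Summed over Bcl2l1, the Ago2 IP values were 569, 492 and 591 rpm in wild type and 526, 606 and 633 rpm in the knockout, which overlapped (log2 0.07, SE 0.21; edgeR, adjusted p = 0.893). The miR-181 share was 17.98% ± 2.8 (SD, n = 3) in wild type and 0 of 106 reads in the knockout, which allows a share of up to 2.83%. On Bcl2l1 miR-142a-3p named 61 of 127 wild-type and 62 of 106 knockout reads, against 27.8% and 39.6% of all reads. The enriched libraries gave 235, 264 and 329 rpm in wild type and 0, 467 and 585 rpm in the knockout. These overlapped, and the knockout SD of 310 rpm exceeded the difference of the means (log2 0.03, SE 0.48; edgeR, adjusted p = 0.992).

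Mcl1, a short-lived inhibitor of apoptosis that thymocytes need at several stages, spans chr3:95656944-95663179 on the plus strand. Its 693 reads fell into 39 clusters, and its 7 sites, all in the 3′ part of the span, held 89.0% of the reads. Site 1 (chr3:95662359-95662568, 611 nt before the end of the span) held 491 reads. Of these, 484 named miR-181: 449 miR-181a-5p, 17 miR-181c-5p, 16 miR-181b-5p and 2 miR-181d-5p. Most reads lay near 1 position, with 390 of 491 within 5 nt of the position of most reads. A minor peak at -77 nt had 19 reads within 5 nt, all of miR-181. These counts include repeated reads, which made up 69.9% of the site. Each read is a single deposited position; which end of the fragment it marks is not given in the sources used here.

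**Figure D2:**
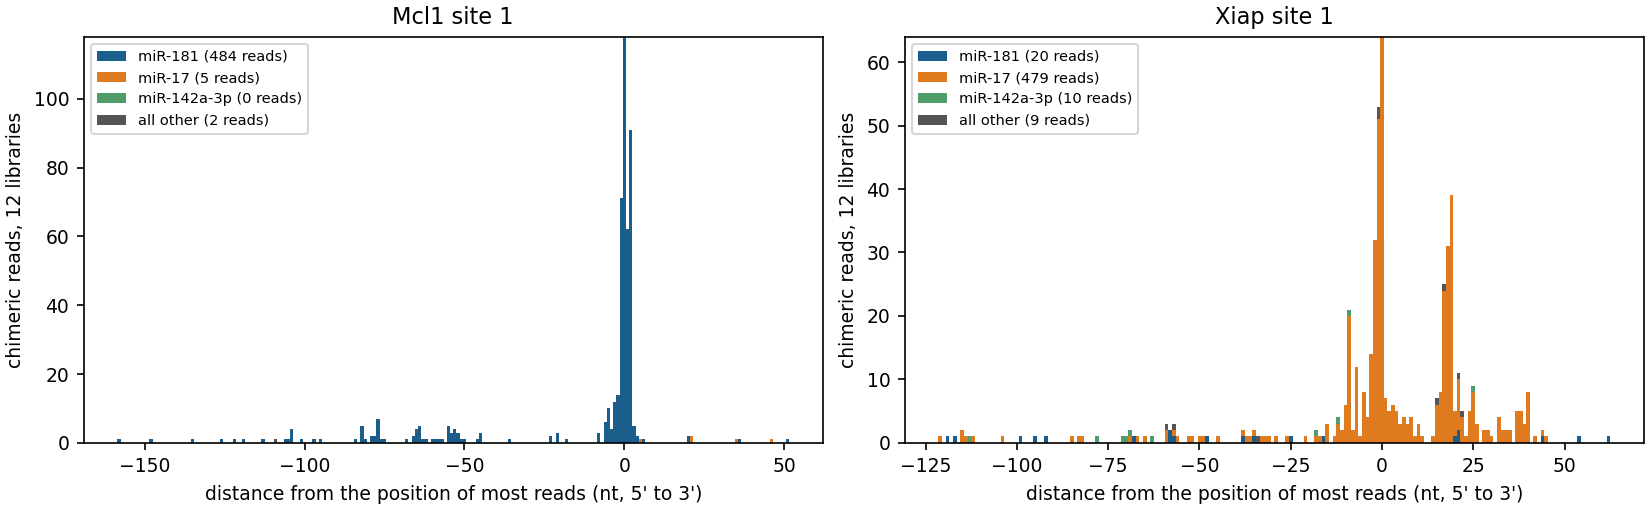
Chimeric reads of all 12 libraries (y axis, reads) by distance in nt from the position of most reads (x axis), coloured by miRNA family, at Mcl1 site 1 and Xiap site 1. Mcl1 site 1 had a main peak of 118 reads and a minor one of 7 reads at -77 nt, both of miR-181. Xiap site 1 had a peak of 64 reads and another of 39 reads 19 nt downstream, both of the miR-17 family.

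Mcl1 site 1 nearly vanished from the knockout Ago2 IP. Wild-type libraries stood at 280, 275 and 250 rpm (33, 19 and 11 reads) and knockout libraries at 0, 29.6 and 19.2 rpm (0, 2 and 1 reads). The groups did not overlap, and the site was 16.3-fold lower in the fit (log2 -4.03, SE 0.57; edgeR over 251 clusters, adjusted p = 5.1e-10). With 3 knockout reads in all, the site passed the filter only through the wild-type libraries, where it was higher, so the call is given as description. The pooled ratio from 3 against 63 reads was 0.0609, with an exact counting interval of 0.0122 to 0.186. In that comparison 36.3% of the clusters were called, 10.8% higher and 25.5% lower, and 50.2% did not overlap. The direction and call held in all 12 alternatives that gave a value (log2 -5.22 to -3.19). Of the 3 knockout reads, 1 named miR-181a-5p and the others miR-20a-5p and miR-106a-5p.

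The rest of Mcl1 did not follow site 1. Outside it, reads stood at 203 ± 43 rpm in wild-type and 303 ± 20 rpm in knockout Ago2 IP (SD, n = 3), without overlap. miR-29 was prominent there, with 10 of 50 wild-type and 15 of 55 knockout reads. Site 2 (chr3:95661759-95661862) held most of it: 26 of its 45 reads named miR-29 family members, led by miR-29a-3p with 13. Reads at site 2 were 76.4, 43.4 and 45.5 rpm in wild-type Ago2 IP and 115, 103 and 96.0 rpm in the knockout. These values did not overlap, but the site had too few reads for the test. Over the whole span Mcl1 stood at 471 ± 59 rpm in wild type and 319 ± 31 rpm in the knockout (SD, n = 3), again without overlap. The difference missed the threshold (log2 -0.62, SE 0.24; edgeR, adjusted p = 0.0865). By reads of other miRNAs alone its direction turned (log2 0.64, adjusted p = 0.0787), and by miR-181 reads alone it was -5.33 (edgeR, adjusted p = 9.0e-14). Both shifts were common to the libraries. Over all genes tested, the median was 0.49 by other reads alone, with 377 of 1263 called higher and 7 lower. By miR-181 reads alone it was -4.52, with 197 of 197 called lower.

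After enrichment, Mcl1 site 1 was again measured in the knockout. Knockout enriched libraries stood at 1313, 467 and 293 rpm from 16, 9 and 2 reads, and all 27 reads named miR-181. Wild-type enriched libraries stood at 600, 517 and 468 rpm. The groups overlapped (log2 0.29, SE 0.37; edgeR over 805 clusters, adjusted p = 0.647). Without knockout enriched library 1 the difference was -0.95 (edgeR, adjusted p = 0.235), and with no filter it was -1.89 and passed as lower (edgeR, adjusted p = 0.0113). Within the knockout, the site was higher after enrichment than in Ago2 IP (log2 3.83, SE 0.73; edgeR over 162 clusters, adjusted p = 3.2e-05), where 88.9% of clusters were called, 49.4% higher and 39.5% lower, and 79.0% did not overlap. It passed the filter there only through the enriched libraries, where it was higher, so this call is given as description. The names at the site differed from wild type: miR-181a-5p made 15 of the 27 reads and miR-181c-5p 12. miR-181c-5p was 22.3% ± 0.77 (SD, n = 3) of miR-181 reads in the knockout enriched libraries as a whole. Its reads at the site came from libraries 1 and 2, with 5 and 7. Counted once, the 27 reads were 13, of which 8 named miR-181a-5p and 5 miR-181c-5p.

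Repeated reads bear on Mcl1 more than on other members. Reads sharing position, strand and miRNA with an earlier read of their library were 50.2% of all Mcl1 reads and 69.9% of those at site 1. Library-wide they were 27.9% to 34.1% in wild-type enriched libraries and 3.24% to 4.72% in Ago2 IP. In wild type the Mcl1 span stood at 471 ± 59 rpm in Ago2 IP and 648 ± 76 rpm after enrichment (SD, n = 3; log2 0.81, SE 0.17; edgeR, adjusted p = 0.000285). Counted once, the log2 difference was -0.18 (adjusted p = 0.537). In the knockout the same comparison gave 1.63 (SE 0.35; edgeR, adjusted p = 7.6e-05), which fell to 0.94 (adjusted p = 0.0863) with repeats counted once and to 0.99 (adjusted p = 0.194) without knockout enriched library 1.

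Bcl2l11 encodes Bim, the BH3-only protein that drives the death of self-reactive thymocytes. It spans chr2:128126038-128162547 on the plus strand and held 136 reads, with 81 naming miR-181. Site 1 (chr2:128158498-128158535) held 16 reads, all miR-181, of which 13 came from wild-type enriched libraries. Site 2 (chr2:128162300-128162393, 154 nt before the end of the span) also held 16 reads, of which 7 named miR-181. Bcl2l11 also carried the miR-17 family, which named 10 of 35 reads in wild-type Ago2 IP, beside 9 for miR-181, and 5 of 27 in the knockout, against 10.2% and 14.3% of all reads. The wild-type share ran from 0% to 45.5% over the 3 libraries. In wild-type Ago2 IP the miR-25-3p reads on Bcl2l11 numbered 5, and 3 of these lay in site 2. Ago2 IP values overlapped between genotypes, at 127, 159 and 205 rpm in wild type and 180.95, 148 and 115 rpm in the knockout (log2 -0.06, SE 0.40; edgeR, adjusted p = 0.959). The miR-181 share was 27.7% ± 13 (SD, n = 3) in wild type and 0 of 27 reads in the knockout, which allows up to 11.1%. After enrichment the knockout held 3 reads, 1 in each library, and the pooled ratio to wild type was 0.818 with an exact counting interval of 0.165 to 2.49.

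Bbc3, which encodes Puma, and Bax, which permeabilises the mitochondrion, carried almost no chimeric reads. Bbc3 (chr7:16308398-16318334, plus strand) had 8 reads in 8 clusters over the 12 libraries, and Bax (chr7:45461695-45466903, minus strand) had 4 reads in 4. Of these, 3 on each gene named miR-181. Both genes failed the filter on low counts in every comparison. Of the 7 members, 5 entered 3 of the comparisons between groups and 4 entered that of enrichment in the knockout, where Bcl2l11 was also left out.

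Xiap, the caspase inhibitor, spans chrX:42059613-42109664 on the plus strand, and most of its reads named the miR-17 family. Site 1 (chrX:42105995-42106178, 3486 nt before the end of the span) held 518 of its 706 reads. miR-17 family members made 479 of them: 145 named miR-17-5p, 135 miR-20a-5p, 106 miR-93-5p, 51 miR-20b-5p and 42 miR-106a-5p. Only 20 reads named miR-181 and 10 miR-142a-3p. The reads formed a pair of peaks 19 nt apart. Within 5 nt of the first lay 201 reads, 199 of them miR-17 family, and within 5 nt of the other lay 138, with 131 of the family. Each of the 5 family members was present at both. Of the 18 miR-181a-5p reads, 13 lay more than 5 nt upstream of the first peak, none within 5 nt of it and 3 within 5 nt of the other peak, as did 4 miR-26a-5p reads.

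The family made up 93.8% of site 1 reads in wild-type Ago2 IP, 96.0% in knockout Ago2 IP and 94.7% in knockout enriched libraries, where it was 10.1%, 14.3% and 4.60% of all reads. In wild-type enriched libraries it was 39.1% of the 23 reads left at the site, against 0.148% of all reads. Read the other way, the site held 0.891% of all miR-17 family reads in wild-type Ago2 IP, 0.939% in knockout Ago2 IP, 0.796% in wild-type enriched and 1.03% in knockout enriched libraries. Among family members, the make-up of the site was near that of the library. miR-93-5p was 22.1% ± 4.9 of family reads at the site and 17.6% ± 0.31 in the 6 Ago2 IP libraries, and was higher at the site in 5 of 6 (exact sign permutation test, p = 0.0938, adjusted p = 0.3125 over 5 members). None of the 5 passed, and this test was added after the data were seen.

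Outside site 1, miR-142a-3p led on Xiap in Ago2 IP, with 22 of 46 wild-type reads and 24 of 43 knockout reads. There miR-181 named 4 of 46 wild-type reads, or 8.70%, beside 18.9% to 59.3% over the whole spans of the other 4 tested members. In wild-type enriched libraries 92 of 93 named miR-181, as did 99.0% of all reads. Site 2 (chrX:42108956-42109011) had 11 miR-181a-5p reads of 16, and site 3 (chrX:42106322-42106411) had 14 miR-181 reads of 15.

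Xiap reads were higher in the knockout Ago2 IP. Values were 1166 ± 32 rpm in wild type and 1658 ± 282 rpm in the knockout (SD, n = 3), and the groups did not overlap. The log2 difference was 0.47 (SE 0.15; edgeR, adjusted p = 0.0287). Of 1555 genes tested, 10.1% were called, 3.22% higher and 6.88% lower. Of the 5 members tested, Xiap was called higher and none lower, with a median log2 difference of -0.06 beside 0.01 over all genes tested. Among the same 1555 genes, 25.7% had groups that did not overlap. Nearly all Xiap reads named other miRNAs: miR-181 named 3.70% in wild type and 0.339% in the knockout. By reads of other miRNAs alone, the median log2 difference over 1263 genes was 0.49, with 377 called higher and 7 lower. The miR-17 family was 10.2% of all wild-type and 14.3% of all knockout reads. The part of this library-wide shift in the Xiap result was not tested. The call was lost with DESeq2 (adjusted p = 0.206), with repeats counted once (0.128), with no filter (0.304), with the replicate block (0.0771), and without any one of wild-type libraries 1, 2 and 3 and knockout libraries 1 and 3 (0.0624 to 0.192). Site 1 alone stood at 984, 912 and 1023 rpm in wild type and 1415, 1153 and 1689 rpm in the knockout, with no overlap, and missed the threshold (log2 0.39, SE 0.18; edgeR, adjusted p = 0.0718). It passed with library sizes alone (log2 0.54, adjusted p = 0.00862), with reads of other miRNAs alone (0.43, adjusted p = 0.0203) and without knockout library 2 (0.53, adjusted p = 0.0414).

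After enrichment for miR-181, Xiap reads made up a smaller share of all chimeric reads in wild type. A fall was common to the library: by reads of other miRNAs alone, 1692 of 1692 genes were called lower (median log2 -5.60). Site 1 was at 23.9, 39.4 and 30.8 rpm in wild-type enriched libraries, far below every wild-type Ago2 IP library (log2 -5.69, SE 0.29; edgeR over 1200 clusters, adjusted p = 8.4e-16). In the knockout the fall was from 1419 ± 268 to 548 ± 317 rpm (SD, n = 3; log2 -2.85, SE 0.32; edgeR, adjusted p = 4.0e-08). Both calls held in every alternative run, from -6.95 to -3.99 and from -3.75 to -1.48. In both comparisons the site passed the filter only through Ago2 IP, where it was higher, so the calls are given as description. Of 1200 clusters tested in wild type, 56.3% were called, 30.0% higher and 26.3% lower, and 77.0% did not overlap. Of 162 in the knockout, 88.9% were called, 49.4% higher and 39.5% lower, and 79.0% did not overlap. Between enriched libraries, site 1 was higher in the knockout (246, 519 and 878 rpm from 3, 10 and 6 reads; log2 3.84, SE 0.51; edgeR, adjusted p = 9.2e-08), a comparison in which 16.4% of 805 clusters were called, 7.7% higher and 8.7% lower, and 40.0% did not overlap. Xiap site 1 passed the filter there only through the knockout libraries, where it was higher, so this call is given as description. An edgeR interaction over all 12 libraries, scaled apart from the pairwise fits, put the difference of the enrichment effect between genotypes at 3.88 (SE 0.56) here and 4.82 (SE 0.73) at Mcl1 site 1. The median over the 608 clusters in that fit was itself 2.67, and 53.6% were called, 53.5% higher and 0.164% lower. With library sizes alone the values were 3.41 and 4.35 beside a median of 2.20. The scaling differs, so these values are not the differences of the pairwise effects (-5.69 and -2.85 for Xiap site 1, 0.20 and 3.83 for Mcl1 site 1). With no filter the Xiap site 1 difference was 1.70 (adjusted p = 0.0634). The whole Xiap span was also higher in the knockout there (160 ± 35 against 672 ± 239 rpm; log2 1.76, SE 0.39; edgeR, adjusted p = 0.00713). That call was lost without knockout enriched library 2 (1.17, adjusted p = 0.286) or library 3 (1.43, adjusted p = 0.0782), and with no filter (1.16, adjusted p = 0.104). By miR-181 reads alone the direction turned (log2 -0.43, adjusted p = 0.730). The library-wide miR-181 share was also lower there, at 70.5% to 72.6% in the knockout against 98.8% to 99.2% in wild type. Its part in the Xiap result was not tested.

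**Figure D3:**
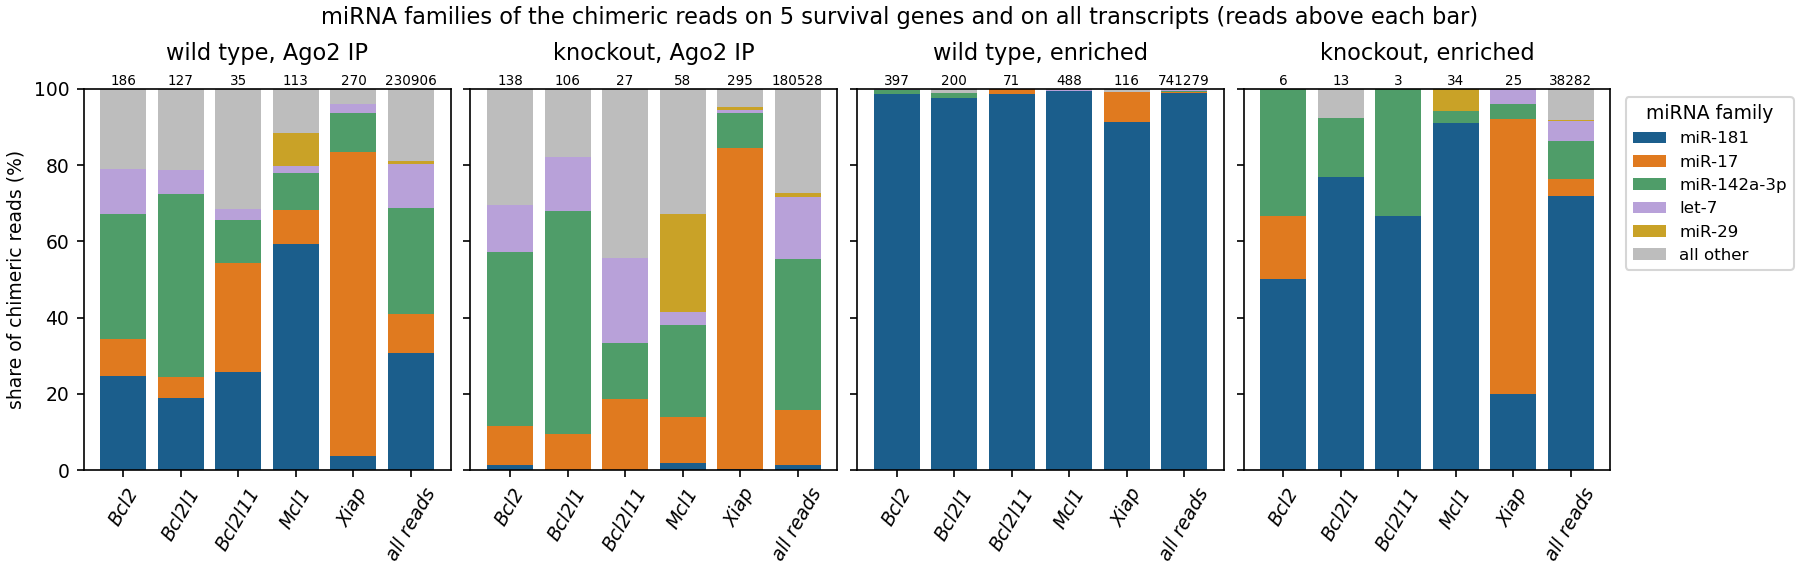
Share of chimeric reads (y axis, %) by miRNA family for 5 survival genes and for all reads (x axis), pooled over the 3 libraries of each of 4 groups, with the number of reads above each bar. The miR-17 family filled most of the Xiap bar in 3 groups, and miR-181 filled most of the Mcl1 bar in wild-type Ago2 IP (67 of 113 reads) and almost none of it in the knockout (1 of 58).

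Across members, the miR-181 share in Ago2 IP was lower in the knockout for each of the 5 genes that could be tested, with no overlap between genotypes. It fell from 62.5% ± 14 to 2.08% ± 3.6 on Mcl1 and from 3.16% ± 1.6 to 0.330% ± 0.57 on Xiap (SD, n = 3). Each exact two-sided permutation test gave p = 0.1, the smallest that 3 against 3 libraries allow, and 0.1 after adjustment over 5 genes. All reads fell from 30.8% to 1.38%, so a fall was common to the library. Wild-type shares ranged widely: only Mcl1 stood above the 30.8% of the whole library in every library, and Xiap was lowest in all 3.

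**Figure D4:**
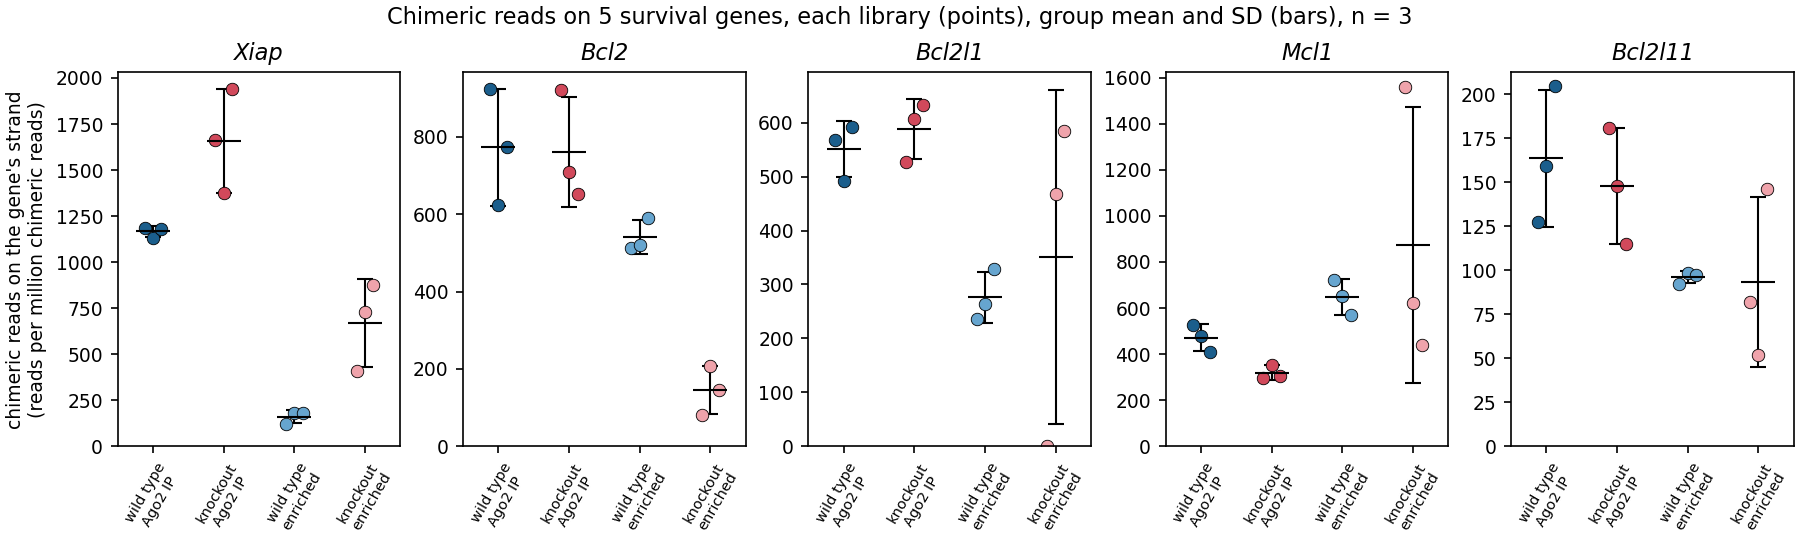
Chimeric reads on the gene's strand (y axis, rpm) for 5 genes in 4 groups (x axis); points are libraries, bars the mean and SD of 3. Xiap stood at 1166 and 1658 rpm in Ago2 IP and at 160 rpm in wild-type enriched libraries, whereas Mcl1 was at 471 and 648 rpm in the wild-type groups.

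Set beside each other in wild type, the members responded differently to the enrichment. Xiap fell (log2 -2.50, SE 0.18; edgeR, adjusted p = 3.2e-15), Bcl2l1 fell (-0.63, SE 0.19, adjusted p = 0.00816) and Mcl1 rose as given above. The values for Bcl2 (-0.17, SE 0.16, adjusted p = 0.445) and Bcl2l11 (-0.28, SE 0.31, adjusted p = 0.511) did not pass. Of 3011 genes tested, 34.7% were called, 19.3% higher and 15.4% lower, and 52.8% did not overlap. The members' median was -0.28 beside -0.01 over all genes. TMM scaling moved that overall median from -0.40 with library sizes alone, and on library sizes alone Bcl2 passed as lower (-0.55; edgeR, adjusted p = 0.0055) and Mcl1 site 1 as higher (0.96; edgeR, adjusted p = 0.000762, against 0.20 and 0.520 with TMM). The Bcl2l1 call was lost with DESeq2 (adjusted p = 0.0804), with no filter (0.161), without wild-type Ago2 IP library 1 (0.0765) and without wild-type enriched library 2 (0.0546).

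Counting only miR-181 reads turned 4 of the members upward after enrichment: log2 1.83 for Bcl2, 1.74 for Bcl2l1, 1.64 for Bcl2l11 and 2.10 for Xiap (edgeR, adjusted p = 1.8e-08, 1.9e-06, 0.00107 and 2.6e-05). Mcl1, which was already higher with all reads, kept its direction. These fits kept the scaling factors of all reads, and of 2231 genes tested 2176 were called higher and 1 lower.

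In the knockout, enrichment lowered Bcl2 from 761 ± 142 to 145 ± 63 rpm (SD, n = 3; log2 -2.09, SE 0.50; edgeR, adjusted p = 0.000342) and Xiap from 1658 ± 282 to 672 ± 239 rpm (log2 -1.16, SE 0.29; adjusted p = 0.000765). Bcl2 had 6 reads after enrichment and passed the filter only through Ago2 IP, where it was higher, so its call is given as description. The Xiap call was lost without knockout enriched library 1 (-0.94, adjusted p = 0.0545). Bcl2l1 did not pass (-0.62, SE 0.43; adjusted p = 0.356). Of 790 genes tested there, 20.9% were called, 15.1% higher and 5.82% lower, and 41.1% did not overlap. Since the knockout enriched libraries enter both this comparison and the one between genotypes, the Bcl2 values are not independent of each other.

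The Xiap site was set against Bcl2 within each library, as log2 of (site 1 reads + 0.5) over (Bcl2 reads + 0.5), which needs no scaling between libraries. The mean was 0.34 ± 0.23 in wild-type Ago2 IP, 0.89 ± 0.41 in knockout Ago2 IP, -4.05 ± 0.35 in wild-type enriched and 1.52 ± 0.52 in knockout enriched libraries (SD, n = 3). The wild-type enriched libraries, between -4.33 and -3.66, stood below all 9 others. There the site held 7, 10 and 6 reads and Bcl2 150, 132 and 115, whereas in the knockout enriched libraries the site held 3, 10 and 6 reads and Bcl2 1, 4 and 1. The difference between genotypes was 5.57 (SE 0.36) after enrichment and 0.54 (SE 0.27) in Ago2 IP, and between enriched and Ago2 IP it was -4.39 (SE 0.24) in wild type. None of these 3 had overlapping groups, and the exact two-sided permutation test gave each p = 0.1, its minimum, and 0.133 after adjustment over 4 comparisons. In the knockout, enriched and Ago2 IP libraries overlapped (0.63, SE 0.38; exact permutation p = 0.3). With all Xiap reads in place of site 1, the wild-type fall was -2.37 and the genotype difference after enrichment 3.66. The ratio depends on library make-up: in wild-type Ago2 IP miR-181 named 24.7% of Bcl2 reads and 2.68% of site 1 reads. Selecting miR-181 chimeras therefore lowers it in wild type by design, and these values are given as description.

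**Figure D5:**
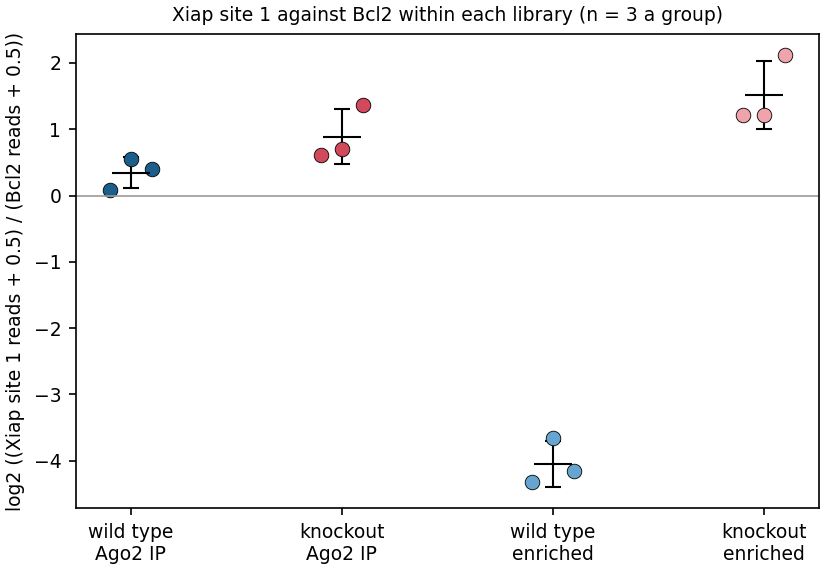
log2 of Xiap site 1 reads over Bcl2 reads, each with 0.5 added (y axis), in 4 groups of 3 libraries (x axis); points are libraries, bars the mean and SD. Only the wild-type enriched libraries lay below 0, at a mean of -4.05.

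Bcl2 and Xiap were also compared with the other 2335 genes of at least 100 reads by Pearson correlation of log2(rpm + 10) over the 12 libraries. Nearest to Bcl2 were Map3k3 (r = 0.958), Arhgap25 (0.957) and Iqgap1 (0.951), whose means in knockout enriched libraries were 0, 17.3 and 17.3 rpm. Nearest to Xiap were Cux1 (0.965), Rb1 (0.960) and Smarcc2 (0.960), with Rb1 at 464, 730, 98.8 and 335 rpm in wild-type Ago2 IP, knockout Ago2 IP, wild-type enriched and knockout enriched libraries. The points share group depth and enrichment, so these values describe the libraries and carry no test.

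Among 48 other genes of the apoptosis pathway, few carried enough reads to be tested. Of the list, 8 had no read, among them the BH3-only gene Hrk and the effector Bok, and 8 had at least 100. By reads, as picked after they were seen, Birc6, an inhibitor-of-apoptosis protein like Xiap, led with 684, followed by Cflar, which blocks caspase-8, with 448 and Mdm4, a p53 inhibitor, with 369. In the Ago2 IP comparison of genotypes 4 of the 48 were tested and in the enriched one 7, and edgeR called none of them in either, where 10.1% and 3.42% of all genes were called. In the comparison of enrichment in wild type 9 were tested and 5 called, against 34.7% of all genes. Cflar (252 ± 7.5 to 419 ± 75 rpm; log2 1.13), the executioner caspase Casp6 (1.87) and Apaf1, the scaffold of the apoptosome (1.024), rose. Mdm4 (-0.54) and Casp2 (-0.96) fell. Casp6, at 49.4 ± 8.7 rpm in Ago2 IP (SD, n = 3), passed the filter only through the enriched libraries, so its call is given as description. The list's median was 0.61 beside -0.01 over all genes. In the knockout, Cflar rose (254 ± 25 to 698 ± 205 rpm; log2 1.73, SE 0.38; edgeR, adjusted p = 8.4e-05) and was the only one called of 3 tested, against 20.9% of all genes. It passed the filter there only through the enriched libraries, where it was higher, so this call is given as description.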

How the data were processed

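miR-eCLIP libraries of mouse thymocytes were analysed: 12 of 18 samples, 3 in each of 4 groups. The deposited lists hold 1 line per chimeric read, so the values are read counts, with no normalization recorded per the labels. The submitters' processing notes name Bowtie2 2.4.5, STAR 2.7.10, UMI-tools 1.1.1, SAMtools 1.11, bedtools 2.30.0 and the mm10 (GRCm38.p6) build; the role and order of each are not stated there. Reads were assigned to RefSeq spans by strand, which for 2796 of 21900 coding genes, none a member, was taken as that of most reads. Levels are counts scaled to 1000000 chimeric reads. Genes and clusters were tested over the whole table with edgeR 4.0.16 in R 4.3.3 (quasi-likelihood, TMM, filterByExpr with a minimum count of 10, library size the total of chimeric reads, Benjamini-Hochberg, threshold 0.05), checked on simulated data. Single values were compared by exact permutation (scipy 1.17.1). DESeq2 1.42.0, other scalings and filters, repeats counted once, miR-181 reads alone, other cluster distances and left-out libraries were alternatives. Members, sites and lists were chosen with earlier results of these data known; named genes are the members, their sites, pathway genes past the threshold and the 3 genes most like Bcl2 and Xiap.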

Additional observations from a re-analysis of the deposited data

Results flagged for a closer look

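The effect of miR-181 enrichment differed between genotypes by an edgeR interaction test over all 12 libraries for 3 of the survival-gene results. For Bcl2 the log2 value, knockout minus wild type, was -2.12, beside a median of -0.11 over 1976 genes, of which 36 were called higher and 3 lower. For Mcl1 site 1 it was 4.82 and for Xiap site 1 3.88, beside a median of 2.67 over 608 clusters, of which 325 were called higher and 1 lower. This fit is scaled apart from the pairwise fits, which gave log2 enrichment effects of 0.20 (wild type) and 3.83 (knockout) at Mcl1 site 1, and of -5.69 and -2.85 at Xiap site 1. With library sizes alone the interaction was -1.73, 4.35 and 3.41.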

How the results depend on the processing

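Main counts of genes called were 157 between genotypes in Ago2 IP, 70 between genotypes after enrichment, 1046 between preparations in wild type and 165 in the knockout; of clusters, 91, 132, 676 and 144 in the same order. DESeq2 called 51, 43 and 597 genes in the first 3. miR-181 reads alone called 185 and 2177 genes in the middle pair of comparisons, and reads of other miRNAs alone called 384 in the first, 1692 in the third and 447 in the last. With no filter 248 genes were called between genotypes after enrichment. For clusters, no filter gave 206, 1093, 2091 and 333 (the last fitted without an abundance trend), miR-181 reads alone 49 in the first and 90 in the last, and other reads alone 39, 30, 271 and 68. In the third, counting repeats once gave 435 clusters and joining at 5 nt gave 394. Leaving out 1 library gave 113 to 144, 39 to 81, 767 to 1050 and 128 to 188 genes, and 76 to 127, 57 to 152, 698 to 770 and 82 to 182 clusters. With library sizes alone the split of wild-type genes was 351 higher and 1014 lower, against 581 and 465.

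Log2 differences that turned sign between genotypes in Ago2 IP were those of Bcl2 with other reads alone (0.29), Mcl1 with other reads alone (0.64), and, over left-out libraries, Bcl2 (-0.24 to 0.13), Bcl2l11 (-0.27 to 0.084) and Bcl2l1 (-0.014 to 0.15). After enrichment, Bcl2l1 turned with no filter (-0.56), repeats counted once (-0.0074), miR-181 reads alone (-0.31), knockout libraries 2 and 3 as 1 sample, a setting added after seeing the data (-0.074) and left-out libraries (-1.07 to 0.37). Mcl1 turned with no filter (-0.43) and over left-out libraries (-0.69 to 0.40), its site 1 with no filter (-1.89) and over left-out libraries (-0.95 to 0.17), and Xiap with miR-181 reads alone (-0.43). Between preparations in wild type, miR-181 reads alone turned Bcl2 (1.83), Bcl2l1 (1.74), Bcl2l11 (1.64) and Xiap (2.10), and left-out libraries Bcl2 (-0.28 to 0.031). Mcl1 turned with repeats counted once (-0.18) and other reads alone (-4.99), and its site 1 with repeats counted once (-0.88) and over left-out libraries (-0.048 to 0.48). In the knockout Mcl1 turned with other reads alone (-1.80). The cause of these changes was not tested.

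Same-numbered libraries were correlated in their deviations. Between genotypes r was -0.114 to -0.0169 in Ago2 IP and -0.0473 to 0.00306 after enrichment. No library there correlated best with that of its own number. Between preparations r was 0.00435 to 0.104 in wild type and 0.0276 to 0.0771 in the knockout. There 2 of 3 wild-type and 3 of 3 knockout numbers gave the best correlation with their own number. Whether the numbers pair the preparations was not tested. With the replicate block, 115, 73, 1179 and 155 genes and 91, 106, 723 and 142 clusters were called, and the Xiap difference in Ago2 IP was 0.46 (edgeR, adjusted p = 0.0771). Depth limits the knockout enriched libraries most, where 3 reads in 1 library are 156 to 439 rpm. The interaction on library sizes alone and the largest-cluster share counted once were added after the data were seen. On library sizes alone the Xiap span passed that interaction (1.55; edgeR, adjusted p = 0.00470), which it missed with TMM (1.14, adjusted p = 0.110).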
